A study of Mus musculus with 6 samples.

Results

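The cyclins that carry cells through the G1 phase, the inhibitors that hold back their kinases and the p53 pathway were examined in primary mouse hepatocytes kept under hypoxia. The members were chosen by name as *Ccnd1*, *Ccnd2*, *Ccnd3*, *Ccne1*, *Ccne2*, *Cdkn1a*, *Cdkn1b*, *Cdkn1c*, *Trp53* and *Mdm2*. Of these 10 genes, 9 stood as the single symbol of a row, among 13725 named genes on 15443 rows. *Trp53* was named alone on no row used here and was not analysed. Hepatocytes of 3 wildtype C57BL/6 mice aged 8 to 12 weeks (male C57BL/6N animals in the methods) were held under hypoxia at 1% O2 or under normoxia at 19.5% O2, and each mouse gave 1 culture to each condition (n = 3 each). Both conditions lasted 72 h by the labels. The paper gives a shorter exposure for the arrays, and the values do not settle which is right. According to the methods, the cells of both conditions sat on collagen and received neither serum nor dexamethasone during the exposure. Labeled cDNA was hybridized to Affymetrix whole-transcript mouse arrays, and the values are RMA expression values on the log2 scale, in which a difference of 1 is a doubling.

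The D cyclins (*Ccnd1*, *Ccnd2*, *Ccnd3*) bind CDK4 and CDK6 in early G1, the E cyclins (*Ccne1*, *Ccne2*) bind CDK2 at the entry to S phase, and both kinases phosphorylate the retinoblastoma protein and so free E2F factors. The CIP/KIP inhibitors p21 (*Cdkn1a*), p27 (*Cdkn1b*) and p57 (*Cdkn1c*) bind these complexes, and p53 drives transcription of both *Cdkn1a* and *Mdm2*, the ubiquitin ligase that marks p53 for destruction. Adult hepatocytes in the liver rest outside the cycle, and those placed in culture or left after removal of liver tissue induce *Ccnd1* on their way back into it.

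The 6 arrays had medians of 7.42 to 7.49. Across rows, r was 0.903 to 0.938 among the hypoxic arrays and 0.958 to 0.963 among the normoxic arrays. All 6 HIF target genes read beside the members were higher under hypoxia, with a median log2 fold change of 2.45. Among them were *Adm* (3.38), *Egln3* (3.35) and *Bnip3* (2.50). Over all rows, limma called 15.5% higher and 23.9% lower (13.3% and 20.1% in the fit blocked by mouse), which stand beside every count in this paragraph. The list of HIF targets includes *Ndrg1*, which the paper had already reported as higher on these arrays, together with a hallmark set of hypoxia genes. The HIF targets are therefore no independent check of the hypoxia label. Of 8 measured hepatocyte markers, 3 were higher and 2 were lower (1 in the fit blocked by mouse, where *Apob* had an adjusted p of 0.0816). Their log2 fold changes ran from -1.03 (*Hnf4a*) to 2.40 (*Asgr1*), with a median of 0.27. The mean level of these markers ran from 10.96 to 11.07 on the hypoxic arrays and from 10.55 to 10.70 on the normoxic arrays. Of 9 measured markers of sinusoidal endothelial cells, 7 were higher and none was lower in limma, against 1 lower at an unadjusted p under 0.05, and their mean level ran from 7.70 to 7.74 under hypoxia and from 6.96 to 7.20 under normoxia. *Stab2* and *Lyve1* were among those that rose (0.78 and 0.79), whereas *Kdr* (-0.40) and *Emcn* (0.31) did not pass in limma. The part of endothelial or other cells in the results on the cell cycle genes was not tested, and in bulk RNA fewer cells of a type and less RNA per cell cannot be told apart.

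Of the 9 measured members, 6 were lower under hypoxia (*Ccnd1*, *Ccnd2*, *Ccne2*, *Cdkn1a*, *Cdkn1b* and *Mdm2*), 0 were higher and 3 did not pass limma's test over all rows at an adjusted p of 0.05. At an unadjusted p under 0.05 the counts were the same, 6 lower and 0 higher. At that threshold 4494 of all 15443 rows were lower and 3193 higher. At the adjusted p, 23.9% of all rows were lower and 15.5% higher (39.5% in either direction), so a fall was common on these arrays. The median log2 fold change was -0.63 over the members and -0.08 over all named genes. In 6 members all 3 hypoxic values lay below all 3 normoxic values, as they did in 31.9% of all rows, and in 1 member (*Ccnd3*) they all lay above, as in 22.4% of all rows. With the mouse as a block, 5 members were lower and 0 higher, where 20.1% of all rows were lower and 13.3% higher. Without mouse 2 or without mouse 3, 1 member remained lower in each case (*Ccnd1*), where 1306 and 1726 of all rows were. Without the hypoxic array of mouse 3, 3 members remained lower, where 2989 of all rows were. The count was also 3 without the normoxic array of mouse 1 or of mouse 3, where 2548 and 2624 of all rows were lower. With all arrays 3698 rows were lower, so calls over all rows were lost in these fits too.

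Among the D cyclins, *Ccnd1* and *Ccnd2* fell and *Ccnd3* did not pass the test. *Ccnd1*, whose product couples mitogen signals to CDK4 and CDK6, had 6.47, 6.87 and 6.37 under hypoxia in mouse 1, 2 and 3, against 8.67, 8.68 and 7.92 under normoxia. Every hypoxic value lay more than 1 log2 unit below every normoxic value, and the normoxic array of mouse 3 was the lowest of its group. The means were 6.57 ± 0.27 under hypoxia and 8.42 ± 0.44 under normoxia (SD, n = 3 each), so that *Ccnd1* differed by -1.85 log2 units (standard error 0.25, 95% interval -2.44 to -1.27, adjusted p = 0.00207 from limma). *Ccnd1* was 3.61-fold lower under hypoxia, and it was lower by 2.20, 1.81 and 1.55 log2 units within mouse 1, 2 and 3. It passed the test under all 19 alternatives that were run, with adjusted p between 0.000391 and 0.0255.

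*Ccnd2*, which encodes a D cyclin with the same kinase partners, had 6.67, 6.42 and 5.89 under hypoxia, against 7.67, 7.15 and 7.44 under normoxia. The groups did not overlap, and mouse 3 had both the lowest hypoxic value and the widest difference between its cultures. The log2 fold change was -1.09 (standard error 0.24, 95% interval -1.64 to -0.54, adjusted p = 0.0106 from limma), a 2.13-fold lower level under hypoxia. The call was lost without mouse 2 (adjusted p = 0.0536) and without mouse 3 (adjusted p = 0.0690).

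*Ccnd3*, the third D cyclin, had 7.53, 7.42 and 7.34 under hypoxia, against 7.11, 7.24 and 7.20 under normoxia. All hypoxic values were above all normoxic values, by a narrow margin. The log2 fold change was 0.24 (standard error 0.13, 95% interval -0.05 to 0.54), and limma's adjusted p of 0.164 did not pass. The intervals of *Ccnd3* and of the other two D cyclins do not overlap, but the difference between genes was not tested.

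Of the E cyclins, *Ccne2* fell and *Ccne1* did not pass the test. *Ccne2*, which encodes an activating partner of CDK2, had 6.12, 6.60 and 6.00 under hypoxia, against 6.91, 6.94 and 6.75 under normoxia. The groups did not overlap, and the hypoxic array of mouse 2 came closest to the normoxic ones. The log2 fold change was -0.63 (standard error 0.18, 95% interval -1.06 to -0.20, adjusted p = 0.0317 from limma). The call was lost with the trend and robust options of eBayes (adjusted p = 0.0604) and without any of the normoxic arrays, any whole mouse, or the hypoxic array of mouse 1 or 3, where adjusted p reached 0.133.

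*Ccne1*, the other E cyclin, had 7.28, 7.22 and 7.37 under hypoxia, against 7.36, 7.73 and 7.74 under normoxia. The groups overlapped, since the normoxic value of mouse 1 lay within the range of the hypoxic values. *Ccne1* was lower in the hypoxic culture of each mouse, by 0.08, 0.51 and 0.37 log2 units, but its log2 fold change of -0.32 (standard error 0.15, 95% interval -0.68 to 0.04) did not pass in limma (adjusted p = 0.139).

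**Figure D1:**
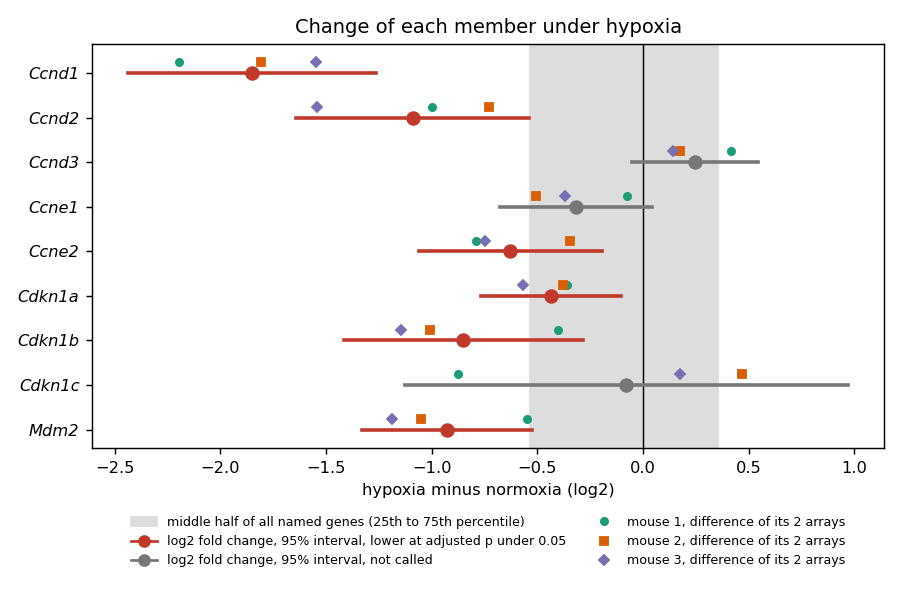
Log2 fold change (hypoxia minus normoxia, x axis) of the 9 measured genes, 1 gene per line, with its 95% interval from limma, the difference within each mouse as small markers, and a grey band from the 25th to the 75th percentile of all named genes (-0.53 to 0.35). The intervals of the 6 genes called lower lie left of 0, whereas those of *Ccnd3*, *Ccne1* and *Cdkn1c* cross it.

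The promoters of *Cdkn1a*, *Cdkn1b* and *Mdm2* are shown because these 3 genes fell and because p53 is known to act on *Cdkn1a* and *Mdm2*. The sequences come from RefSeq (GRCm38.p6), where 5 of the 9 measured genes matched (*Ccnd3*, *Ccne1*, *Cdkn1a*, *Cdkn1b* and *Mdm2*) with 7 windows from 250 bases before to 50 bases after a transcription start. The 250 bases before each start are printed 5′ to 3′ along the strand of the gene. Capitals mark a p53 half-site or the core of a HIF response element (ACGTG or GCGTG), each on either strand.

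Cdkn1a, first start, chr17:29090729-29090978, plus strand: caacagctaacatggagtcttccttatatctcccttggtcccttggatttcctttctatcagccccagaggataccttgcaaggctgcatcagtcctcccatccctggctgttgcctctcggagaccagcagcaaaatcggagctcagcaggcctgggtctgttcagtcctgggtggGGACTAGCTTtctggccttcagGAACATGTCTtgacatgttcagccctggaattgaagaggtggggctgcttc

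Cdkn1a, second start, chr17:29093519-29093768, plus strand: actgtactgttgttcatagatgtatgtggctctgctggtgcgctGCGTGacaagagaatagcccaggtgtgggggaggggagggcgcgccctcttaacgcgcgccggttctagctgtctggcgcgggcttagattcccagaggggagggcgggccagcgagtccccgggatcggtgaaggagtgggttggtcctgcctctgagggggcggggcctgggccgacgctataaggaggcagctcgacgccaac

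Cdkn1b, chr6:134920151-134920400, plus strand: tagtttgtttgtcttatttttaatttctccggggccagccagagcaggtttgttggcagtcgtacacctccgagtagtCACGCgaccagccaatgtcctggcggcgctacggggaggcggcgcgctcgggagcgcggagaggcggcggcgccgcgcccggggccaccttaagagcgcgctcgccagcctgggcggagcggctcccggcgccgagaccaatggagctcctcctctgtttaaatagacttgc

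Mdm2, chr10:117710759-117711008, minus strand: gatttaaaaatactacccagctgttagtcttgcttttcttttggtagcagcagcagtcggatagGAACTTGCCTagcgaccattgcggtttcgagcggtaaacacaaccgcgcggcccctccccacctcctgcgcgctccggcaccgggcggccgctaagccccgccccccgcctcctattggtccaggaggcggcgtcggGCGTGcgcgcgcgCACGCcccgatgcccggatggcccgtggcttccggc

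The window before the first *Cdkn1a* start held 2 p53 half-sites, which begin 73 and 51 bases before the start, and no HIF core. The window before its second start held 1 HIF core and no p53 half-site. *Mdm2* had a p53 half-site that begins 186 bases before the start and 2 HIF cores nearer to it, whereas *Cdkn1b* had 1 HIF core and no p53 half-site. Over the 7 windows of the members, a p53 half-site was found in 2 and a HIF core in 5, which also included *Ccne1* (4 cores) and the second window of *Ccnd3*, genes that did not pass the test. Among all 32851 windows of the same length, 8.36% held a p53 half-site and 43.8% a HIF core. The E2F letters TTTCCCGC or TTTGGCGC were in none of the 7 windows and in 1.56% of all windows, the GC box GGGCGG was in 6 of the 7 and in 35.7% of all, and the TATA letters TATAAA were in none of the 7 and in 13.6% of all. Both strands were searched for every motif. The search for the HIF core counts GCGTG and ACGTG as 1 motif, and no HIF core overlapped a p53 half-site in the printed stretches. The member windows held 54.7% to 76.0% G and C, against a median of 52.7% over all windows. The part of this base composition in the motif counts was not tested. A match says only that the letters are present.

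Of the CIP/KIP inhibitors, *Cdkn1a* and *Cdkn1b* fell and *Cdkn1c* did not pass the test. *Cdkn1a*, which encodes p21, had 10.75, 10.58 and 10.70 under hypoxia, against 11.11, 10.96 and 11.27 under normoxia. The groups did not overlap, and the replicates of each lay close together. The log2 fold change was -0.44 (standard error 0.14, 95% interval -0.77 to -0.11, adjusted p = 0.0435 from limma), a 1.35-fold lower level under hypoxia and the smallest change among the 6 members that passed. In the fit blocked by mouse the adjusted p was 0.0694, and with arrays centred on the brighter rows it was 0.0669. The call was also lost without any normoxic array, any whole mouse, or the hypoxic array of mouse 2 or 3, where adjusted p reached 0.190.

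*Cdkn1b*, which encodes p27, had 7.28, 6.41 and 6.69 under hypoxia, against 7.68, 7.42 and 7.84 under normoxia. All hypoxic values were below all normoxic values, although the hypoxic array of mouse 1 came close to the normoxic array of mouse 2. The log2 fold change was -0.85 (standard error 0.24, 95% interval -1.42 to -0.29, adjusted p = 0.0280 from limma), a 1.80-fold lower level under hypoxia. *Cdkn1b* was lower by 0.40 log2 units in mouse 1 and by 1.01 and 1.14 in mouse 2 and 3. The call was lost without mouse 2 (adjusted p = 0.103), without mouse 3 (0.191) and without the hypoxic array of mouse 2 or 3 or the normoxic array of mouse 1 or 3 (0.0730 to 0.0930).

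*Cdkn1c*, which encodes p57, had 5.25, 7.10 and 6.69 under hypoxia, against 6.13, 6.63 and 6.51 under normoxia. The hypoxic values lay on both sides of the normoxic ones, with mouse 1 lowest and mouse 2 highest of all arrays. The means were 6.35 ± 0.97 under hypoxia and 6.43 ± 0.26 under normoxia (SD, n = 3 each), and the log2 fold change was -0.08 (adjusted p = 0.904 from limma, standard error 0.45). It had a 95% interval from -1.13 to 0.97, which leaves a change of about 2-fold in either direction possible. Without the hypoxic array of mouse 1 the log2 fold change was 0.47.

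*Mdm2*, the ubiquitin ligase and p53 target, had 8.87, 8.47 and 8.64 under hypoxia, against 9.42, 9.52 and 9.82 under normoxia. The groups were clearly apart, and in mouse 1 the 2 cultures differed least. The means were 8.66 ± 0.20 under hypoxia and 9.59 ± 0.21 under normoxia (SD, n = 3 each). The log2 fold change was -0.93 (standard error 0.17, 95% interval -1.33 to -0.53, adjusted p = 0.00586 from limma), a 1.90-fold lower level under hypoxia, with differences of -0.55, -1.05 and -1.19 in mouse 1, 2 and 3. The call was lost without mouse 2 (adjusted p = 0.0648) and without mouse 3 (adjusted p = 0.0571). Its relative *Mdm4*, whose product also holds p53 in check, had 7.23, 7.06 and 6.76 under hypoxia, against 7.70, 7.99 and 8.04 under normoxia, and it fell as well (log2 fold change -0.89, standard error 0.17, adjusted p = 0.00716 from limma). For *Mdm4* too the call was lost without mouse 2 (adjusted p = 0.0754) or mouse 3 (0.0630).

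The genes around the members were read from 6 lists of the same pathway, with 74 of 80 genes measured. Of these, 34 were lower, 3 were higher and 37 did not pass, with a median log2 fold change of -0.52, beside 23.9% lower and 15.5% higher over all rows. At an unadjusted p under 0.05, 41 were lower and 3 higher, where 4494 of all 15443 rows were lower and 3193 higher. Without mouse 2, 11 were lower and 1 was higher, where 1306 of all rows were lower and 852 higher. Without mouse 3, 15 were lower and 2 were higher, where 1726 of all rows were lower and 1193 higher. The normoxic arrays of mouse 2 and 3, left out in turn, gave 21 and 22 lower, where 2380 and 2624 of all rows were. With all arrays 3698 rows were lower and 2400 higher. These values over all rows also stand beside the counts of the single lists below.

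**Figure D2:**
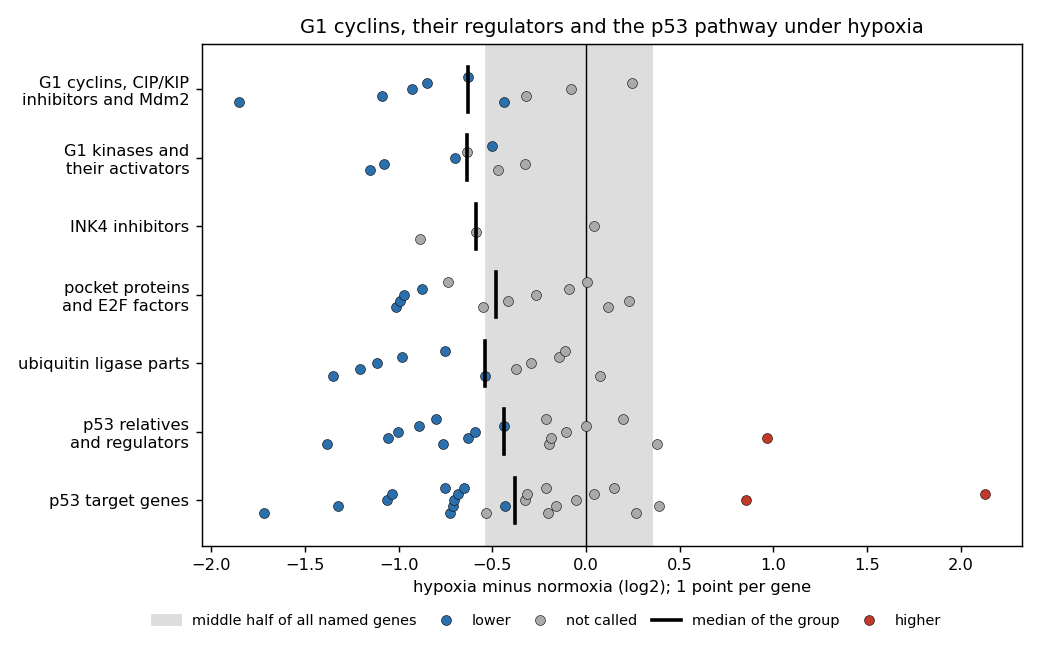
Log2 fold change (hypoxia minus normoxia, x axis) of every measured gene of the members and of the 6 pathway lists, 1 point per gene, spread vertically only to keep points apart. Blue points passed as lower and red points as higher, black bars are medians, and the grey band holds the middle of all named genes (-0.53 to 0.35). All 3 red points lie in the p53 groups.

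Among the kinases that the G1 cyclins activate, and their own activators, 4 of 7 fell, 0 rose in limma (0 also at an unadjusted p under 0.05, where 6 were lower) and 3 did not pass. The count lower was 1 without mouse 2 and 2 without mouse 3, the hypoxic array of mouse 2 or the normoxic array of mouse 2 or 3. *Cdk6*, a partner of the D cyclins, had 8.78, 8.64 and 8.996 under hypoxia, against 9.82, 10.002 and 9.82 under normoxia, and the groups did not overlap (log2 fold change -1.08, standard error 0.15, adjusted p = 0.00216 from limma). *Cdk4*, the other partner, had 9.50, 9.33 and 8.84 under hypoxia, against 9.98, 10.04 and 9.57 under normoxia. Its log2 fold change of -0.64 (standard error 0.22) just missed in limma (adjusted p = 0.0533) and passed in the fit blocked by mouse (adjusted p = 0.0286). Mouse 3 had the lowest value in both conditions. *Cdc25a*, which encodes the phosphatase that activates CDK2, fell (log2 fold change -1.15, standard error 0.20, adjusted p = 0.00496), but not without mouse 2 (adjusted p = 0.0660). *Cdk2* (-0.50) and *Cdk7* (-0.70), which encodes the kinase that activates CDKs, passed without the block and not with it (adjusted p = 0.0764 and 0.0611).

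The INK4 inhibitors, which bind CDK4 and CDK6 alone, gave no call in either direction: 3 of 4 were measured, and 1 was lower at an unadjusted p under 0.05. *Cdkn2a*, whose locus encodes both p16 and the p53 activator ARF, had 5.49, 6.39 and 6.26 under hypoxia, against 6.62, 6.53 and 6.75 under normoxia, and the groups did not overlap (log2 fold change -0.59, standard error 0.24, adjusted p = 0.0937 from limma). Only 1 row was read for the locus, so that its 2 products cannot be told apart. *Cdkn2b*, which encodes p15, had 6.83, 7.78 and 8.00 under hypoxia, against 8.07, 7.08 and 7.33 under normoxia. The hypoxic culture of mouse 1 was below its normoxic partner, and those of mouse 2 and 3 were above theirs (log2 fold change 0.04, standard error 0.36, adjusted p = 0.936 from limma). Without mouse 1 the log2 fold change of *Cdkn2b* was 0.68 and passed (adjusted p = 0.0380). *Cdkn2c*, which encodes p18, had 5.01, 6.45 and 7.003 under hypoxia, against 7.006, 7.03 and 7.08 under normoxia, with a wide spread on the hypoxic arrays and close normoxic values (log2 fold change -0.89, standard error 0.46, adjusted p = 0.161 from limma).

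**Figure D3:**
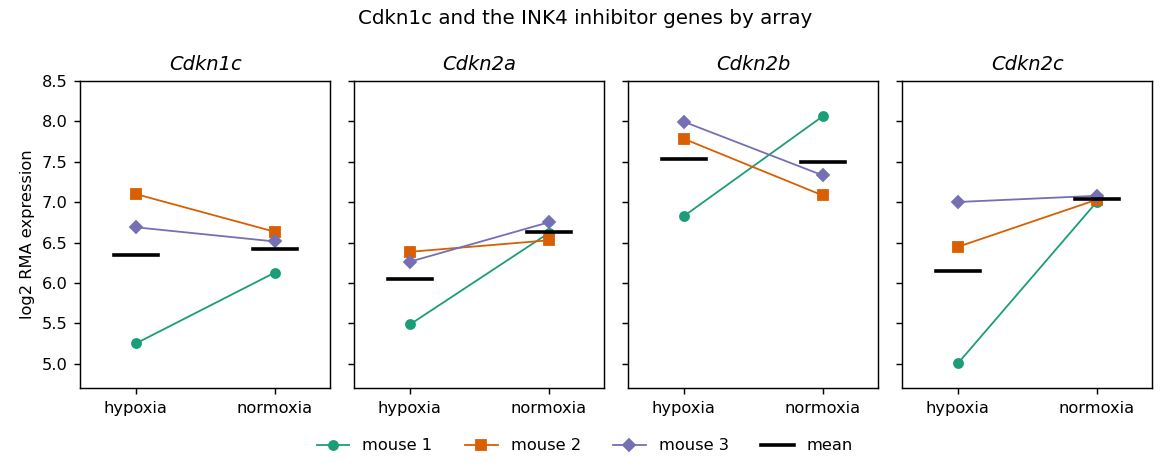
Log2 RMA expression (y axis) of *Cdkn1c*, *Cdkn2a*, *Cdkn2b* and *Cdkn2c* on the hypoxic and normoxic arrays (x axis), 1 line per mouse, with a black bar for each mean. In all 4 genes the hypoxic array of mouse 1 is the lowest of the 6 values.

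Of 12 measured pocket proteins and E2F factors, 4 fell, 0 rose in limma (0 also at an unadjusted p under 0.05, where 7 were lower) and 8 did not pass. Over all rows 23.9% were lower. The count lower was 2 without mouse 2 or without mouse 3, where 1306 and 1726 of all rows were lower. It was 7 without the hypoxic array of mouse 1, where 4131 of all rows were lower. *Rbl1*, which encodes the pocket protein p107, had 6.08, 6.05 and 6.14 under hypoxia, against 7.18, 7.07 and 6.94 under normoxia, with no overlap (log2 fold change -0.97, standard error 0.13, adjusted p = 0.00202 from limma). *Rbl2*, which encodes p130, also fell (-0.88, adjusted p = 0.00862), but just missed without mouse 2 (adjusted p = 0.05003). *Rb1*, the retinoblastoma gene, had 7.79, 7.21 and 7.05 under hypoxia, against 7.84, 7.93 and 7.93 under normoxia, and its log2 fold change of -0.55 did not pass (adjusted p = 0.0702), whereas without the hypoxic array of mouse 1 it was -0.77 and passed (adjusted p = 0.00578). *E2f8*, which encodes a repressor of the E2F family, and *Tfdp2*, a dimer partner of E2F factors, were lower (-1.01 and -0.99). The call was lost without mouse 3 for *E2f8* (adjusted p = 0.0525) and in 4 of the leave-outs for *Tfdp2* (adjusted p up to 0.125). The activator genes *E2f1* (0.23) and *E2f3* (-0.09) did not pass.

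Of 11 measured genes for parts of the ubiquitin ligases that destroy G1 cyclins and CIP/KIP inhibitors, 6 fell, 0 rose in limma (0 also at an unadjusted p under 0.05) and 5 did not pass. The count lower was 3 without mouse 2. It was also 3 when the lowest 25% of rows were left out, where *Skp2*, *Dtl* and *Fbxw7* were removed and so not tested. *Skp2* and *Cks1b*, whose products together mark p27 for destruction, were both lower, in the same cultures in which *Cdkn1b* was lower. *Cks1b* had 6.18, 6.51 and 6.65 under hypoxia, against 7.79, 7.76 and 7.40 under normoxia (log2 fold change -1.20, standard error 0.18, adjusted p = 0.00286 from limma). *Skp2* had 5.95, 5.83 and 5.08 under hypoxia, against 6.70, 6.75 and 6.75 under normoxia (log2 fold change -1.11, standard error 0.23, adjusted p = 0.00966 from limma, 0.0641 without mouse 2). In both genes every hypoxic value was below every normoxic value. *Fbxw7*, which encodes the subunit that recognizes cyclin E, was lower (-0.98, adjusted p = 0.00295), as were *Dtl* (-1.35, adjusted p = 0.00200) and *Ddb1* (-0.75, adjusted p = 0.00422, 0.0619 without mouse 2), parts of a ligase that acts on p21. *Ambra1*, which encodes the subunit that recognizes the D cyclins, was lower by 0.54.

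Of 17 relatives and regulators of p53, 9 fell, 1 rose and 7 did not pass. The count lower was 1 without mouse 2 and 2 without mouse 3. It was 4 without the normoxic array of mouse 1 or of mouse 2, and 5 without the hypoxic array of mouse 2. Without the lowest 25% of rows it was also 5, where *Chek2* and *Trp53bp1* were removed and so not tested. The damage kinase genes *Chek2* (-1.38, standard error 0.21, adjusted p = 0.00303) and *Atr* (-1.05, standard error 0.17, adjusted p = 0.00360) and *Trp53bp1*, which encodes a protein that gathers at DNA breaks (-0.80, standard error 0.15, adjusted p = 0.00667), were lower in limma. The call of *Atr* was lost without mouse 2 (adjusted p = 0.0546) and that of *Trp53bp1* without mouse 2 or mouse 3. *Chek1* (0.20) and *Usp7* (-0.18), which encodes a protease that spares MDM2 and p53 from destruction, did not pass. *Trp63*, a relative of p53, had 7.09, 7.47 and 7.47 under hypoxia, against 6.78, 5.72 and 6.65 under normoxia. Its groups did not overlap, and the normoxic array of mouse 2 lay far below the others (log2 fold change 0.96, standard error 0.29, adjusted p = 0.0347 from limma). In the fit blocked by mouse *Trp63* did not pass (adjusted p = 0.0593), and its call was lost in 6 of the 9 fits that left out an array or a mouse.

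Of 24 measured p53 target genes other than *Cdkn1a* and *Mdm2*, 11 fell, 2 rose and 11 did not pass, and with the mouse as a block 8 fell. The count lower was 4 without mouse 2 or without mouse 3, 6 without the normoxic array of mouse 1 or of mouse 3, and 7 without that of mouse 2. The count higher was 1 without mouse 2. *Trp53inp1*, which encodes a nuclear partner of p53, had 9.16, 8.80 and 8.96 under hypoxia, against 10.58, 10.53 and 10.97 under normoxia, and all hypoxic values were far below all normoxic values (log2 fold change -1.72, standard error 0.17, adjusted p = 0.000873 from limma). *Apaf1*, which encodes the scaffold of the apoptosome, had 6.81, 6.24 and 6.54 under hypoxia, against 8.01, 7.83 and 7.71 under normoxia (log2 fold change -1.32, standard error 0.18, adjusted p = 0.00215 from limma). *Eda2r*, a death receptor gene, fell by 1.06 on the log2 scale (adjusted p = 0.00316, 0.0519 without mouse 2). *Ccng1*, which encodes cyclin G1, had 10.54, 10.45 and 10.40 under hypoxia, against 11.11, 11.08 and 11.14 under normoxia and it fell by 0.65 (adjusted p = 0.00625, lost without mouse 2 or mouse 3).

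The 2 p53 targets that rose were *Plk3* and *Gadd45a*, both known as stress-response genes. *Plk3*, which encodes a polo-like kinase, had 9.71, 9.51 and 9.52 under hypoxia, against 7.63, 7.36 and 7.37 under normoxia, so that the groups lay about 2 log2 units apart (log2 fold change 2.13, standard error 0.14, adjusted p = 0.000303 from limma, 4.38-fold higher). *Gadd45a*, whose product binds p21 and PCNA, had 8.97, 8.95 and 9.33 under hypoxia, against 8.17, 8.02 and 8.49 under normoxia (log2 fold change 0.86, standard error 0.18, adjusted p = 0.00966 from limma, 0.0736 without mouse 2). *Btg2* (-0.22), *Zmat3* (-0.53), *Perp* (-0.05) and *Pmaip1* (0.15), all p53 targets, did not pass.

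**Figure D4:**
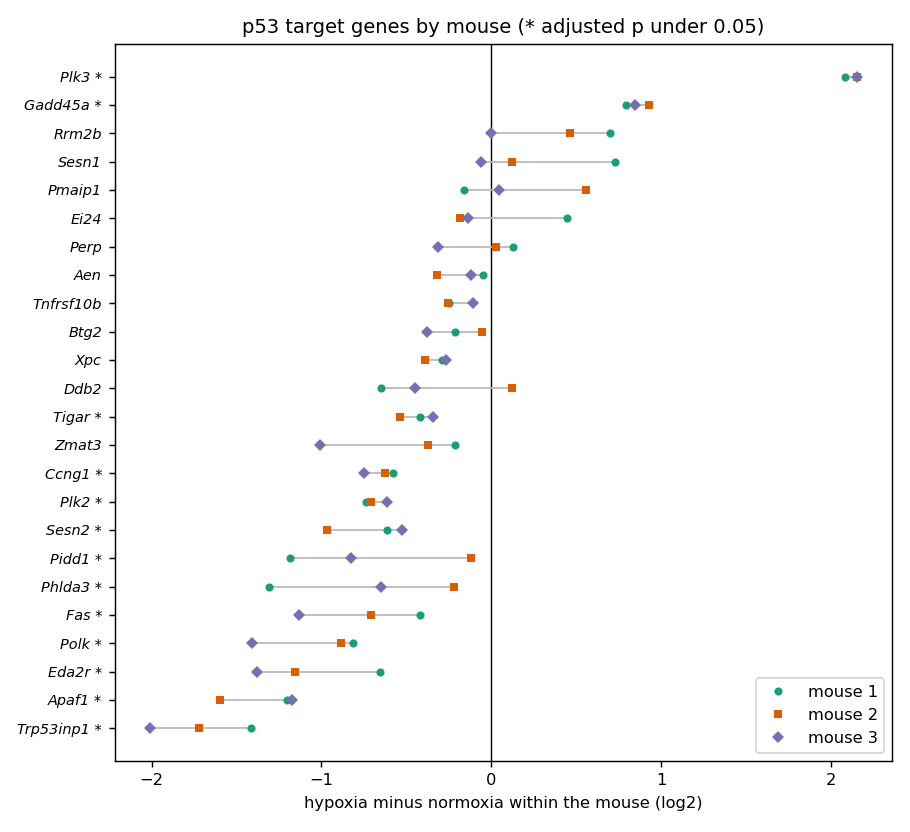
Difference between the hypoxic and the normoxic culture of each mouse (hypoxia minus normoxia, log2, x axis) for the 24 measured p53 target genes, 1 gene per line and 1 marker per mouse, with an asterisk on genes that passed. *Trp53inp1* is the lowest and *Plk3* the highest of the 24 genes in every mouse.

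Of 7 measured markers of S phase and mitosis, 5 were lower, like the G1 cyclins that fell, and 2 were higher. Over all rows 23.9% were lower and 15.5% higher. *Ccna2*, the cyclin of S phase and G2, had 4.58, 4.39 and 5.48 under hypoxia, against 8.00, 7.60 and 7.68 under normoxia (log2 fold change -2.94, adjusted p = 0.000832 from limma), and the mitotic cyclin gene *Ccnb2* (-2.81) and the proliferation marker *Mki67* (-2.67) were lower in the same cultures. *Mcm2*, a part of the replicative helicase (0.84, adjusted p = 0.00711), and *Pcna*, the sliding clamp of DNA replication (0.81, adjusted p = 0.00677), were higher, with no overlap between the groups. The call of *Mcm2* was lost without mouse 2 (adjusted p = 0.0547) and that of *Pcna* without mouse 3 (adjusted p = 0.0503).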

How the data were processed

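RNA of 6 hepatocyte cultures (3 mice, 1 culture each under hypoxia and under normoxia) was measured on Affymetrix arrays. The deposited values are log2 RMA values that the authors computed with the oligo package, whose version is not given in the sources used here. They were used unchanged. The table holds part of the array by a rule that is not stated, and no detection calls. The effect of that rule, and whether dim rows were detected, could not be judged. The number of arrays limits the precision as well. Gene symbols came from the platform annotation, updated through RefSeq names.

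Each of the 15443 rows was tested by limma 3.58.1 (R 4.3.3; lmFit, then eBayes) with the condition as the only term, and p-values adjusted by Benjamini-Hochberg were called under 0.05. The methods name a linear model with eBayes and give no design formula. The p-values measure only the spread between these arrays. An exact permutation test of 3 against 3 arrays cannot go below p = 0.1 and was not used. According to the labels the same mice stand in both conditions, which pairs the samples. After subtraction of the group means, the 2 arrays of mouse 1, 2 and 3 correlated at -0.11, 0.02 and 0.10.

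The members, the pathway lists and the marker lists were chosen with earlier results of these data known. A gene with several rows was read from the row with the highest mean. Named were every member, the 4 genes of each pathway list with the smallest adjusted p among those that passed, those that passed against the majority, up to 3 of each check or marker list, and exceptions that a sentence needed. *Skp2*, *Mcm2*, *Pcna*, *Ccng1*, *Ccna2*, *Ambra1*, *Lyve1*, *C1qa*, *Apob*, *Marco*, *Krt19* and genes given as not passing fall outside this rule and were chosen with their values known.

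Alternatives were the mouse as a block, trend and robust eBayes with and without it, leaving out the lowest 25% of rows, rows with 1 symbol only, quantile normalization again, centring on brighter rows, averaging a gene's rows, thresholds of 0.01 and 0.1, and leaving out each array or mouse. The code was checked on simulated data. Promoter windows came from RefSeq (GRCm38.p6), and motifs were searched in 300 bases each.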

Additional observations from a re-analysis of the deposited data

How the results depend on the processing

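No member gene that was called changed direction under any alternative run. The mouse as a block, which is the paired analysis, gave 5 members lower (without *Cdkn1a*), 2 pathway list genes higher and 29 lower, and 2047 rows higher and 3099 lower. A threshold of 0.01 gave 2 members lower, 19 pathway list genes lower, 1126 rows higher and 1944 rows lower. By list, it gave 2 G1 kinase genes (4 at 0.05), 2 pocket protein and E2F genes (4), 4 p53 regulators (9) and 6 p53 targets (11) lower. A threshold of 0.1 gave 7 pocket protein and E2F genes and 1 INK4 gene lower. When each array or mouse was left out, 1 to 5 members were lower and 0 to 0 higher, 1 to 4 pathway list genes were higher and 11 to 39 lower, and 852 to 3114 rows were higher and 1306 to 4131 lower. *Cdkn1c* turned to 0.0447 on the log2 scale with quantile normalization again, and its log2 fold change ran from -0.45 to 0.47 over the leave-outs. That of *Cdkn2b* ran from -0.29 to 0.68. Quantile normalization again and centring on brighter rows moved the median log2 fold change of all rows to -0.005 and 0.01, against -0.05 as deposited. Of the members, *Ccne2* and *Cdkn1c* were not tested when the lowest 25% of rows were left out. The same holds for other named genes, among them *Skp2*, *Dtl*, *Fbxw7*, *Chek2* and *Trp53bp1*, so lower counts in that fit include genes that were removed. Where a call was lost in a fit that tested the gene, the cause was not tested. The table holds no background values, so whether the dimmest rows lie above background is unknown.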

Other observations

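Markers of the other liver cell types went in both directions under hypoxia. So did all rows, of which 15.5% were higher and 23.9% lower (13.3% and 20.1% with the mouse as a block). Of 7 measured Kupffer cell and macrophage markers, 2 were higher (1 with the mouse as a block, where *Marco*, 0.57, had an adjusted p of 0.0674) and 2 were lower, with a mean level of 7.10 to 7.43 under hypoxia and 7.23 to 7.29 under normoxia. *Cd68*, a lysosomal protein gene of macrophages, rose by 1.35 on the log2 scale, whereas the complement genes *C1qb* (-1.64) and *C1qa* (-0.54) fell. The call of *C1qa* was lost without mouse 2 (adjusted p = 0.118 from limma), without mouse 3 (0.117) and without the normoxic array of mouse 2 or 3. Of 8 measured stellate and mesenchymal markers, 1 was higher (*Reln*, 1.70) and 1 lower (*Acta2*, -1.11), with a mean level of 7.07 to 7.33 under hypoxia and 6.89 to 7.13 under normoxia. *Acta2* did not pass without mouse 3 (adjusted p = 0.0647 from limma). Of 5 measured cholangiocyte markers, 1 was higher (*Krt7*, 0.82) and 2 were lower (*Spp1*, -2.81, and *Sox9*, -1.14), with a mean level of 7.91 to 8.30 under hypoxia and 8.25 to 8.73 under normoxia. With the mouse as a block *Krt7* did not pass (adjusted p = 0.0873 from limma) and *Krt19* (1.18) did (0.00914, against 0.0707 without the block). Without mouse 2 the log2 fold change of *Krt7* was 0.40 (adjusted p = 0.197), and its call was also lost in 6 of the other fits that left out an array or a mouse. Of 3 measured leukocyte markers, 1 was higher (*Nkg7*, 0.72), with a mean level of 7.86 to 8.35 under hypoxia and 7.65 to 7.89 under normoxia. *Nkg7* did not pass without mouse 2 (adjusted p = 0.160 from limma) or without mouse 3 (0.084). Its call was also lost without the hypoxic array of mouse 2 or 3 or the normoxic array of mouse 1 or 2.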
